A study of Mus musculus with 48 samples.

Results

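The mitosis genes described here are 50 mouse genes that act in chromosome condensation, spindle assembly, chromosome segregation or cell division, taken as a list of symbols from 39017 genes counted by RNA-seq in 48 libraries of cultured adult neural stem cells (NSCs). All 50 were found in the 3 count tables, which hold day 4, days 5, 6 and 9, and day 7. A gene was kept in a table where at least 4 libraries had 10 or more reads, which left 42 genes at day 4, 49 at days 5, 6 and 9, and 46 at day 7. A further filter on low counts in the test left 41, 49 and 44 of them, so a gene could be tested because it was high in only one group. Plk1, the polo-like kinase of mitotic entry, had at most 11 reads in any library and was kept in no table. Cdca2, Spc24 and Aurkb were kept only at days 5, 6 and 9, and Bub1, Ttk, Cdc20 and Ube2c were not kept at day 4.

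The NSCs came from the dentate gyrus of mice aged 7 to 8 weeks. All of them carried Hopx-CreERT2, Setd1a fl/fl and H2B-GFP, and all were moved from medium with EGF to medium with BMP4 and FGF2, in which NSCs become quiescent. KO cultures were infected with a lentivirus expressing Cre-GFP and WT cultures with one expressing GFP alone, so that loss of Setd1a, a histone H3 lysine 4 methyltransferase, viral Cre and any action of Cre on the reporter cannot be told apart, and the infected share of the cells was not measured in the libraries. KO and WT were sampled at days 4, 5, 6 and 9 and, at day 7, after ORY-1001, an inhibitor of the histone demethylase LSD1, or its solvent DMSO, with 4 libraries in each of the 12 groups. The study describes the 4 as independent cultures, while the labels only number them.

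Most of these genes are transcribed in waves. In quiescent cells the DREAM complex holds them down at promoter elements called CHR and CDE, and in cycling cells the MuvB core with B-MYB and FOXM1, together with NF-Y at CCAAT boxes, raises them in G2 and mitosis. Cyclin B and CDK1 then start mitosis, condensins compact the chromosomes, kinetochores join them to the spindle, the spindle checkpoint delays anaphase until all are attached, and the passenger complex and the midzone proteins complete division. In bulk RNA a lower level can come from fewer dividing cells or from less RNA per cell, and these cannot be told apart.

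The libraries held 5.81 to 8.40 M reads at day 4, 3.14 to 12.4 M at days 5, 6 and 9, and 4.27 to 20.6 M at day 7. Setd1a itself was at 0 to 5.41 CPM (reads per M reads of the library, M being 10 to the sixth) and was not called in any of the 6 comparisons of KO with WT, with log2 fold changes of 0.60, 0.11, 0.77 and 0.09 at days 4, 5, 6 and 9, and of 0.46 with ORY-1001 and -0.42 with DMSO. These counts cover the whole gene, 52.3% of its exonic length is shared with another gene, and the floxed part is not stated in the sources used here, so they do not check the deletion. The 8 neural stem and astroglial markers summed to 8650 to 17100 CPM in every group, while Sox10 of the oligodendrocyte lineage was at 0 in all libraries and Dcx of new neurons reached at most 0.312 CPM. At days 5, 6 and 9, libraries 1 and 3 of each group, and libraries 2 and 4, were closer to each other than to the rest, and their chi-square statistic divided by its degrees of freedom was 1.78 to 2.43, against 2.82 to 9.20 for the other pairs. The close libraries differed by more than counting noise, which does not show whether they are separate cultures. The libraries of a group were counted as 4 samples, but each main count at these days is also given with each such pair summed to 1 sample.

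Summed over the 50 genes, the level moved more with the day than with the genotype. The sums were 1300.1, 1286.9, 1229.1 and 1308.5 CPM in KO and 1321.6, 1348.8, 1323.5 and 1382.1 CPM in WT at day 5, and 558.8, 569.4, 542.7 and 559.9 CPM in KO and 707.8, 730.2, 711.5 and 714.5 CPM in WT at day 6. At day 9 they were 1200.7, 1331.1, 1248.6 and 1387.7 CPM in KO and 1120.0, 1111.9, 1153.0 and 1188.4 CPM in WT. KO lay below WT in every library at days 5 and 6, and above WT in every library at day 9. At day 4 the sums were 515.7 ± 23.4 CPM in KO and 548 ± 5.30 CPM in WT, and at day 7 they were 443.2 ± 27.9 CPM in KO and 547.7 ± 30 CPM in WT with ORY-1001, and 437.3 ± 34.9 CPM in KO and 486.6 ± 39.1 CPM in WT with DMSO (SD, n = 4 each). The 3 tables were tested separately, and day 7 is not read as a step between days 6 and 9.

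**Figure D1:**
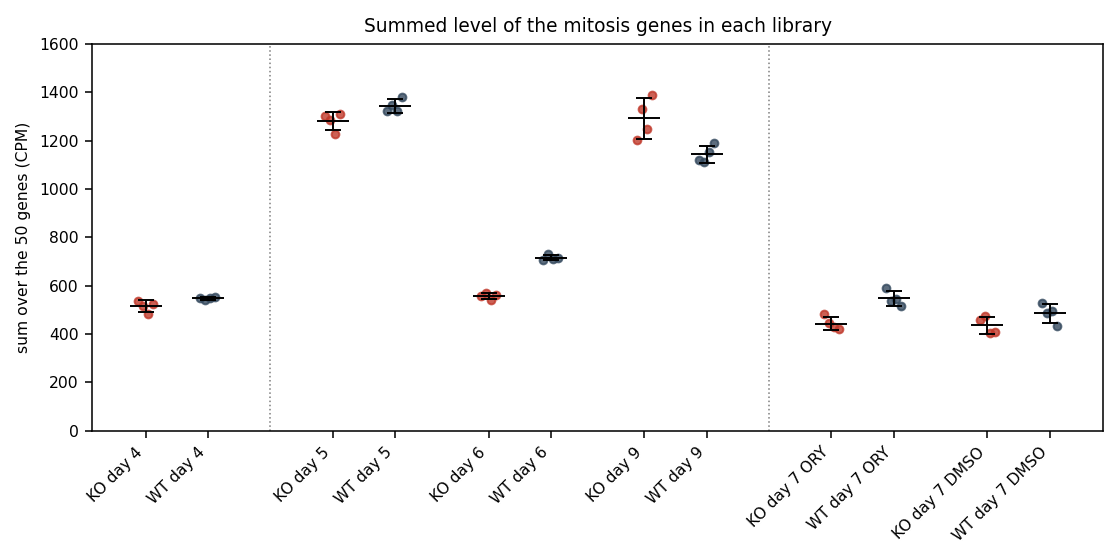
Summed level of the 50 mitosis genes (CPM, vertical axis) in each of the 48 libraries, by group along the horizontal axis, with red points for KO and blue-grey points for WT. Bars give the mean and SD of 4 libraries, and dotted lines separate the 3 count tables. The groups of days 5 and 9 sit between 1111.9 and 1387.7 CPM, and those of days 4, 6 and 7 between 406.1 and 730.2 CPM.

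Per kilobase of exon, the highest of the genes in WT at day 5 were Pbk, a mitotic kinase, at 30.3 CPM per kb, the condensin subunits Smc2 and Smc4 at 21.4 and 20.1, Cdk1 at 17.3 and Top2a, the topoisomerase that untangles sister DNA, at 15.7. The lowest were Cenpa, the centromeric histone, at 0.508, Knl1 of the outer kinetochore at 0.442 and Plk1 at 0.149 CPM per kb. At day 6 Smc4 led in both genotypes, at 25.1 CPM per kb in KO and 21.8 in WT, and Pbk stood at 5.9 in KO and 11.4 in WT.

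At day 6 many of the listed mitosis genes were lower in KO than in WT. The list was chosen with earlier results of these data known. Its shares therefore describe these genes and do not test mitosis genes at large. Of 68 other mitosis genes tested, 3 were higher and 5 lower in KO at day 6. Of 49 tested, 25 fell (51%) and none rose at an adjusted p of at most 0.05 (edgeR quasi-likelihood test, Benjamini-Hochberg over all 12549 genes), against 13.1% of all genes called in either direction (6.69% higher and 6.45% lower). The median log2 fold change of the 49 was -0.51, beside 0 for all genes, and 18 of them had no overlap between the 4 KO and the 4 WT libraries, all with KO lower, against 17.3% of all genes without overlap. All 7 role groups had members that fell: 6 of 7 cyclins, kinases and entry genes, 3 of 7 chromosome structure genes, 2 of 9 centromere and kinetochore genes, 4 of 7 checkpoint and anaphase genes, 2 of 4 passenger complex genes, 4 of 8 spindle genes and 4 of 7 midzone and cytokinesis genes. With the close libraries summed, 8 of the 25 calls remained: Ccnb1, Ccnb2, Cdk1, Pbk, Top2a, Nuf2, Aspm and Ckap2l.

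Top2a had 23.4, 17.6, 22.7 and 23.1 CPM in KO libraries, against 41.6, 41.9, 45.2 and 37.9 CPM in WT libraries. Every KO library lay below every WT library, with a log2 fold change of -0.93 ± 0.10 (SE, adjusted p = 3.56e-08), the smallest p of the list. Cdk1, the kinase that drives entry into mitosis, had 38.5, 29.2, 30.1 and 32.6 CPM in KO, against 44.4, 50, 45.4 and 49.8 CPM in WT, and fell by 0.56 on the log2 scale (adjusted p = 0.000198). Its partner Ccnb1, cyclin B1, had 9.62, 14.3, 9.7 and 13 CPM in KO, against 19.8, 21, 20.2 and 20.9 CPM in WT. The log2 fold change was -0.81 ± 0.14 (SE, adjusted p = 6.6e-05). The second B-type cyclin, Ccnb2, had 5.41, 6.87, 4.72 and 6.42 CPM in KO, against 11.7, 10.9, 15.2 and 10.1 CPM in WT. On the log2 scale KO over WT was -1.04 ± 0.23 (SE, adjusted p = 0.0025). The groups did not overlap for any of these 4 genes. Pbk fell by 0.90, and Aurka, the centrosomal kinase, by 0.66 on the log2 scale (adjusted p = 4.52e-05 and 0.0406). In this role group only Ccna2, cyclin A2, which shares 12.5% of its exonic length with the antisense gene Exosc9, was not called among those tested, with 5.11, 5.46, 4.8 and 3.98 CPM in KO and 4.02, 4.24, 5.34 and 4.82 CPM in WT.

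The kinetochore gene Nuf2, a subunit of the NDC80 complex that holds microtubules, had 17.1, 14.1, 15.5 and 16.1 CPM in KO, against 27.2, 25.3, 30.5 and 25.2 CPM in WT at day 6 (log2 fold change -0.80 ± 0.12 SE, adjusted p = 9.16e-06), again without overlap. Its partners in the complex were not called: Ndc80 was at -0.71, Spc25 at -0.25 and Spc24 at 0.00 on the log2 scale (adjusted p = 0.108, 0.229 and 0.999). Dsn1 of the MIS12 complex, which anchors kinetochores to centromeres, fell by 0.49 (adjusted p = 0.00547). Among spindle genes, Ckap2l, a mitotic spindle protein of neural progenitors, fell by 1.15 and Aspm, a spindle pole protein whose loss causes microcephaly, by 1.11 on the log2 scale (adjusted p = 1.81e-05 and 0.00028). Ect2, the exchange factor that positions the cleavage furrow, Anln, the furrow scaffold anillin, and Prc1, which bundles midzone microtubules and shares 11.1% of its exonic length with Rccd1, fell by 0.87, 0.67 and 0.51 (adjusted p = 0.000696, 0.00179 and 0.00362). The checkpoint kinase Bub1b and the checkpoint protein Mad2l1 fell by 0.90 and 0.51, and Ube2c, the ubiquitin-conjugating enzyme of the anaphase-promoting complex, which shares 22.8% of its exonic length with Tnnc2, by 1.21 (adjusted p = 0.00692, 0.0182 and 0.0175).

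Of the 16 genes named by rule and called at day 6, 12 kept their call without each library in turn and 4 did not. Aurkb, the kinase of the passenger complex, had 0.902, 0.88, 0.961 and 0.153 CPM in KO, against 2.72, 2.21, 0.651 and 1.76 CPM in WT (log2 fold change -1.29 ± 0.44 SE, adjusted p = 0.0469), and the groups overlapped. Its adjusted p was 0.0546 to 0.168 without any 1 of KO libraries 1 to 4 or WT libraries 1, 2 or 4. Mki67, which coats mitotic chromosomes and marks cycling cells, had 10.2, 7.22, 8.3 and 7.65 CPM in KO, against 15.7, 13.1, 13.5 and 10.1 CPM in WT (log2 fold change -0.67 ± 0.19 SE, adjusted p = 0.0166), and its adjusted p was 0.0641 without WT library 1. The call of Ube2c was lost without KO library 3 (adjusted p = 0.0862) and that of Mad2l1 without KO library 4 (0.0622) or WT library 3 (0.0727). Smc2, Smc4, Kif11 and Nusap1 had values above 0: their log2 fold changes were 0.04, 0.20, 0.33 and 0.04, none called.

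The promoters of 4 of these genes are shown as examples, because genes of this kind are known to be timed by elements in their promoters: Top2a, Cdk1 and Ccnb1 fell in KO at day 6, and Nusap1 was not called at day 6 and rose in KO at day 9. The sequences are the 250 bases before the RefSeq start on GRCm38.p6, with CCAAT (or its reverse ATTGG) and TTTGAA (or its reverse TTCAAA, the usual core of a CHR) in capitals. Top2a lies on the minus strand (chr11:99024190-99024439), as do Cdk1 (chr10:69352913-69353162) and Ccnb1 (chr13:100786487-100786736), and Nusap1 lies on the plus strand (chr2:119618048-119618297).
Top2a: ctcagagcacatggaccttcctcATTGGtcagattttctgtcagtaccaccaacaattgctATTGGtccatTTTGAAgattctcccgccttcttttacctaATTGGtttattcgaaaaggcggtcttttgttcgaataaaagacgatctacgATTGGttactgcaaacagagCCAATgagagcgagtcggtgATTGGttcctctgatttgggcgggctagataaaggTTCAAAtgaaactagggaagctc
Cdk1: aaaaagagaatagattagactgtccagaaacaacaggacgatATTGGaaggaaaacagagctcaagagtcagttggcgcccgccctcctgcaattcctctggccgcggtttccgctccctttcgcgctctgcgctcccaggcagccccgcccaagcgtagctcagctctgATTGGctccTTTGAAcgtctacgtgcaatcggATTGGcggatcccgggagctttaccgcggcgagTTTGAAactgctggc
Ccnb1: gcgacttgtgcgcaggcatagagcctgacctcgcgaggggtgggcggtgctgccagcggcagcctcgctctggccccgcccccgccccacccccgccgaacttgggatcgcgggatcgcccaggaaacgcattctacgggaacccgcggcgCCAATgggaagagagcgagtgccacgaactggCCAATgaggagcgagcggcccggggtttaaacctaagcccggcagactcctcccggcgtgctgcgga
Nusap1: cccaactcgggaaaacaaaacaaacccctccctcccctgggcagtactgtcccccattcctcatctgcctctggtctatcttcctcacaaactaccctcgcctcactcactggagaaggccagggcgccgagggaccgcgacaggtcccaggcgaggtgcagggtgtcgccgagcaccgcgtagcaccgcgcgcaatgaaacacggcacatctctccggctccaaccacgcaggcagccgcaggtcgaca
Top2a held 6 CCAAT and 2 TTTGAA matches, Cdk1 had 3 and 2, Ccnb1 had 2 CCAAT matches and no TTTGAA, and Nusap1 had neither. These 4 do not stand for the rest. Nuf2, Anln, Dsn1, Mad2l1, Ncaph and Sgo1 also fell in KO at day 6 and had neither motif. Cenpf and Kif11 held CCAAT and were not called at day 6. Whether the motifs go with the calls was not tested. Of the 43 promoter entries that matched 41 of the genes, 31 held a CCAAT (72.1%), against 33.8% of all 32851 promoters of the same length. A pair or more of CCAAT matches was in 21 (48.8%), against 10.1% of all, and TTTGAA in 14 (32.6%), against 16.0% of all. Both elements were in 13 of the 43 (30.2%), against 5.55% of all promoters. Matches of the 2 motifs can share at most 1 base, and a match is a run of letters rather than a measured binding site. The other 9 genes, Ccna2, Pbk, Cdca2, Smc4, Spc24, Incenp, Aurkb, Tpx2 and Kif20a, had no entry in the table.

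At day 9 most of the genes called were higher in KO. Of 49 genes, 10 were higher and 2 lower in KO (24.5%), against 11.8% of all genes called either way (6.35% higher and 5.43% lower). The median log2 fold change of the 49 was 0.31, beside -0.01 for all genes, and 15 genes had no overlap, 13 of them with KO higher, against 14.5% of all genes without overlap. The 10 were spread over 6 role groups: Ccnb1 and Aurka, Nuf2 and Cenpf, Sgo1, Aurkb and Cdca8, Nusap1 and Aspm, and Kif20b. No chromosome structure gene was called. With the close libraries summed only Nusap1 was called (adjusted p = 0.043), and the 10 and 2 calls became 16 and 3 when library number and a correction for GC content and length were fitted together.

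Nusap1, which bundles spindle microtubules near chromosomes, had 32.8, 33, 42.2 and 33.2 CPM in KO, against 21, 18.6, 25.1 and 25.9 CPM in WT. This was a log2 fold change of 0.64 ± 0.11 (SE, adjusted p = 0.000211). Nuf2 had 44.3, 68.2, 52.2 and 59 CPM in KO, against 33.9, 34.5, 38.6 and 37.8 CPM in WT. The fitted log2 fold change was 0.60 ± 0.10 (SE, adjusted p = 8.68e-05). Cenpf, a large kinetochore and nuclear matrix protein of late G2, had 23.7, 22.5, 18.1 and 26.9 CPM in KO, against 13.6, 16.1, 13 and 13.6 CPM in WT. KO over WT came to a log2 fold change of 0.70 ± 0.15 (SE, adjusted p = 0.00132). None of these 3 overlapped, and none lost its call when any 1 library was left out. Leaving out 1 library keeps its close partner, and with the close libraries summed Nuf2 and Cenpf were not called (adjusted p = 0.0509 and 0.0713). Aurkb had 6.03, 8.82, 9.07 and 8.18 CPM in KO, against 4.18, 4.68, 3.44 and 2.44 CPM in WT, the largest rise of the list (log2 fold change 1.12 ± 0.28 SE, adjusted p = 0.0073). Its partner Cdca8, borealin, rose by 0.70, Aurka by 0.84 and Aspm by 0.80 on the log2 scale (adjusted p = 0.00243, 0.00281 and 0.00565), all 3 without overlap and kept without any 1 library.

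Ccnb1 had 25.8, 26.1, 26.8 and 27.6 CPM in KO, against 22.7, 18.2, 20.8 and 18.3 CPM in WT. The log2 fold change was 0.41 ± 0.12 (SE, adjusted p = 0.0258). The groups did not overlap, but the adjusted p was 0.0553 to 0.0762 without KO library 3 or 4 or WT library 2 or 4. Sgo1, which protects centromeric cohesion, rose by 0.73 and Kif20b, a kinesin of the midzone, by 0.68 (adjusted p = 0.0266 and 0.0144). Sgo1 was lost without KO library 3 or 4 or WT library 1 or 3 (0.0550 to 0.115), and Kif20b without KO library 4 or WT library 1 or 3 (0.0586 to 0.0714). Top2a and Cdk1, both lower in KO at day 6, were not called, with 116, 121, 113 and 130 CPM of Top2a in KO and 123, 106, 124 and 97.6 CPM in WT, and log2 fold changes of 0.09 for Top2a and 0.06 for Cdk1. Mki67 was at 0.39 on the log2 scale (adjusted p = 0.0734).

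Dsn1 and Anln were lower in KO at day 9. Dsn1 had 21.2, 21.9, 25.3 and 28.4 CPM in KO, against 28.8, 33.3, 33.6 and 31.4 CPM in WT. On the log2 scale KO over WT was -0.39 ± 0.11 (SE, adjusted p = 0.0204). Anln had 12.3, 12.7, 14.4 and 15.4 CPM in KO, against 17.7, 17.2, 16.2 and 22.3 CPM in WT. The fitted log2 fold change was -0.41 ± 0.14 (SE, adjusted p = 0.0429). Neither overlapped between the groups. Dsn1 lost its call without KO library 1 or 2 or WT library 2 or 3 (0.0527 to 0.0968), and Anln without any 1 of KO libraries 1 to 3 or WT libraries 1, 2 or 4 (0.0534 to 0.183). Days 6 and 9 share no library: of the 25 genes lower at day 6, 7 were among the 10 higher at day 9 (28% and 70% of the lists), namely Aspm, Aurka, Aurkb, Ccnb1, Cdca8, Nuf2 and Sgo1. In all, 32 of 49 genes were below 0 at day 6 and above 0 at day 9.

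**Figure D2:**
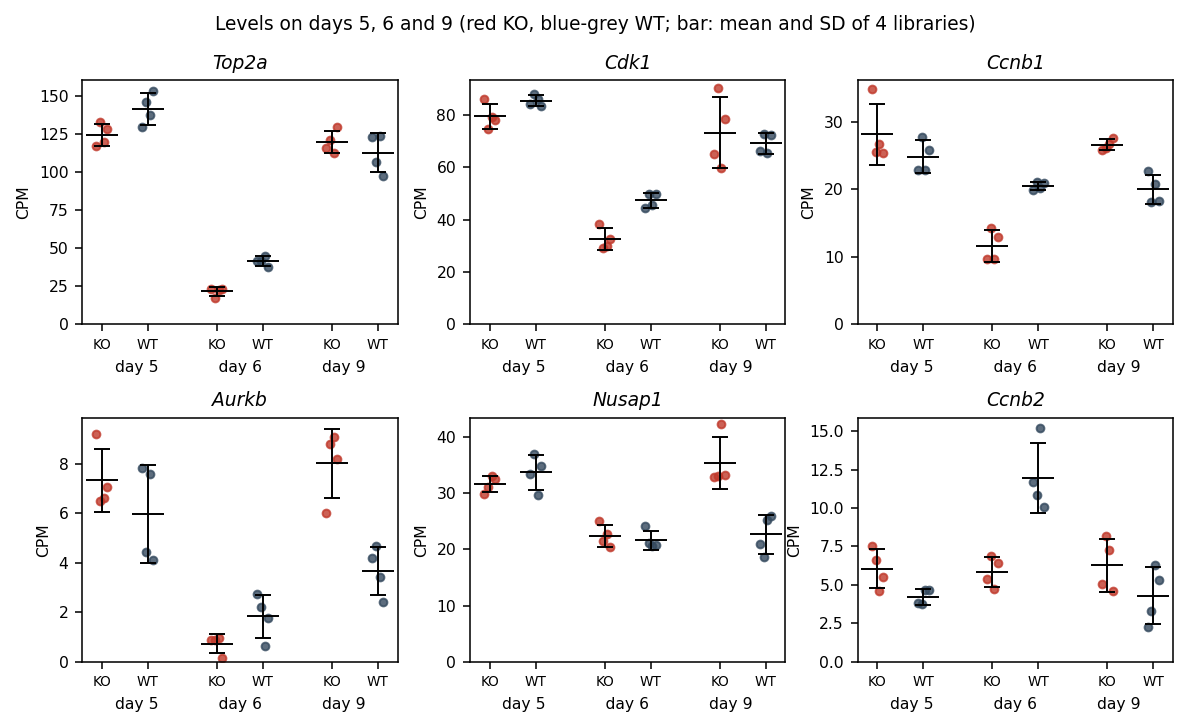
Levels (CPM, vertical axes from 0) of Top2a, Cdk1, Ccnb1, Aurkb, Nusap1 and Ccnb2 in the 4 KO (red) and 4 WT (blue-grey) libraries at days 5, 6 and 9, with the mean and SD as bars. KO sits below WT in every library for Top2a, Cdk1, Ccnb1 and Ccnb2 at day 6, and above WT in every library for Ccnb1, Aurkb and Nusap1 at day 9.

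Most of the genes fell at day 6 and rose at day 9 within each genotype. Within KO, 46 of 49 genes fell and 1 rose at day 6 compared with day 5 (95.9%, against 43.0% of all genes called), with a median log2 fold change of -1.54. Within WT, 38 fell and 2 rose (81.6%, against 44.1% of all genes), with a median of -1.10, and all 38 were among the 46 of KO. Of all genes, 21.5% were called lower in KO and 22.6% in WT. In KO, 44 of the 49 genes had no overlap between the days, against 38.7% of all genes, and in WT 40 of 49, against 40.4% of all genes. At day 9 compared with day 6, 43 rose and 1 fell in KO (89.8%, against 33.3% of all genes; median 1.43), and 34 rose and 3 fell in WT (75.5%, against 40.1% of all genes; median 0.63), all 34 being among the 43. Of all genes, 17.9% were called higher in KO and 21% in WT. In KO, 42 of the 49 had no overlap, against 29% of all genes, and in WT 29 of 49, against 35.8% of all genes. With the close libraries summed, 44 fell and 1 rose in KO and 35 fell and 2 rose in WT at day 6 over day 5, and 40 rose and none fell in KO and 27 rose and 3 fell in WT at day 9 over day 6. These comparisons share the day 6 libraries within each genotype. The sum of the neural stem and astroglial markers also stood higher at days 5 and 9 than at day 6. It was 16300 to 17100 CPM at day 5, 9990 to 10700 CPM at day 6 and 14700 to 16100 CPM at day 9 over both genotypes. The markers did not move together: in both genotypes the means of Fabp7 and Slc1a3 were lowest at day 6, while those of Sox2 and Vim were highest at day 6. The part of these markers in the time changes was not tested.

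In KO, Top2a had 23.4, 17.6, 22.7 and 23.1 CPM at day 6, against 117, 133, 120 and 128 CPM at day 5, a log2 change of -2.52 ± 0.09 (SE, adjusted p = 5.23e-22). In WT it had 41.6, 41.9, 45.2 and 37.9 CPM at day 6, against 130, 146, 138 and 154 CPM at day 5, a change of -1.77 ± 0.09 (SE, adjusted p = 8.85e-19). Neither genotype overlapped between the days. Aurkb changed by -3.27 in KO and -1.71 in WT at day 6, and by 3.41 in KO and 1 in WT at day 9, the widest swing in KO of the list. Kif11, the motor that pushes spindle poles apart, and Bub1, the checkpoint kinase, fell in both genotypes at day 6: the log2 change of Kif11 was -2.24 in KO and -2.40 in WT, and that of Bub1 was -2.51 in KO and -3.54 in WT.

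A few genes went against the rest. In WT, Ccnb2 was higher at day 6 than at day 5, with 3.8, 3.77, 4.66 and 4.68 CPM at day 5, 11.7, 10.9, 15.2 and 10.1 CPM at day 6 and 2.27, 3.3, 6.33 and 5.3 CPM at day 9, so that day 6 stood above both other days in every library. In KO it had 7.53, 6.6, 4.59 and 5.5 CPM at day 5, 5.41, 6.87, 4.72 and 6.42 CPM at day 6 and 5.04, 8.16, 7.26 and 4.63 CPM at day 9, which overlapped throughout. The fitted changes were 1.48 and -1.44 in WT (adjusted p = 6.18e-06 and 4.07e-06), and -0.03 and 0.07 in KO (adjusted p = 0.941 and 0.877). Cenpa also rose at day 6 in WT, by 0.96 on the log2 scale (adjusted p = 0.00557, or 0.0528 without WT day 5 library 4). At day 9, Cdca3, a trigger of mitotic entry, and Aspm fell in WT, by 0.94 and 0.66 (adjusted p = 0.000753 and 0.00509). Smc4 was the exception in KO, with 95.1, 93, 90.6 and 93.2 CPM at day 5, 128, 143, 124 and 128 CPM at day 6 and 98.8, 104, 102 and 116 CPM at day 9, higher at day 6 than on either side without overlap (0.49 and -0.31, adjusted p = 3.67e-06 and 0.00233), while its condensin partner Smc2 fell at day 6 by 0.67 in KO and 0.99 in WT.

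**Figure D3:**
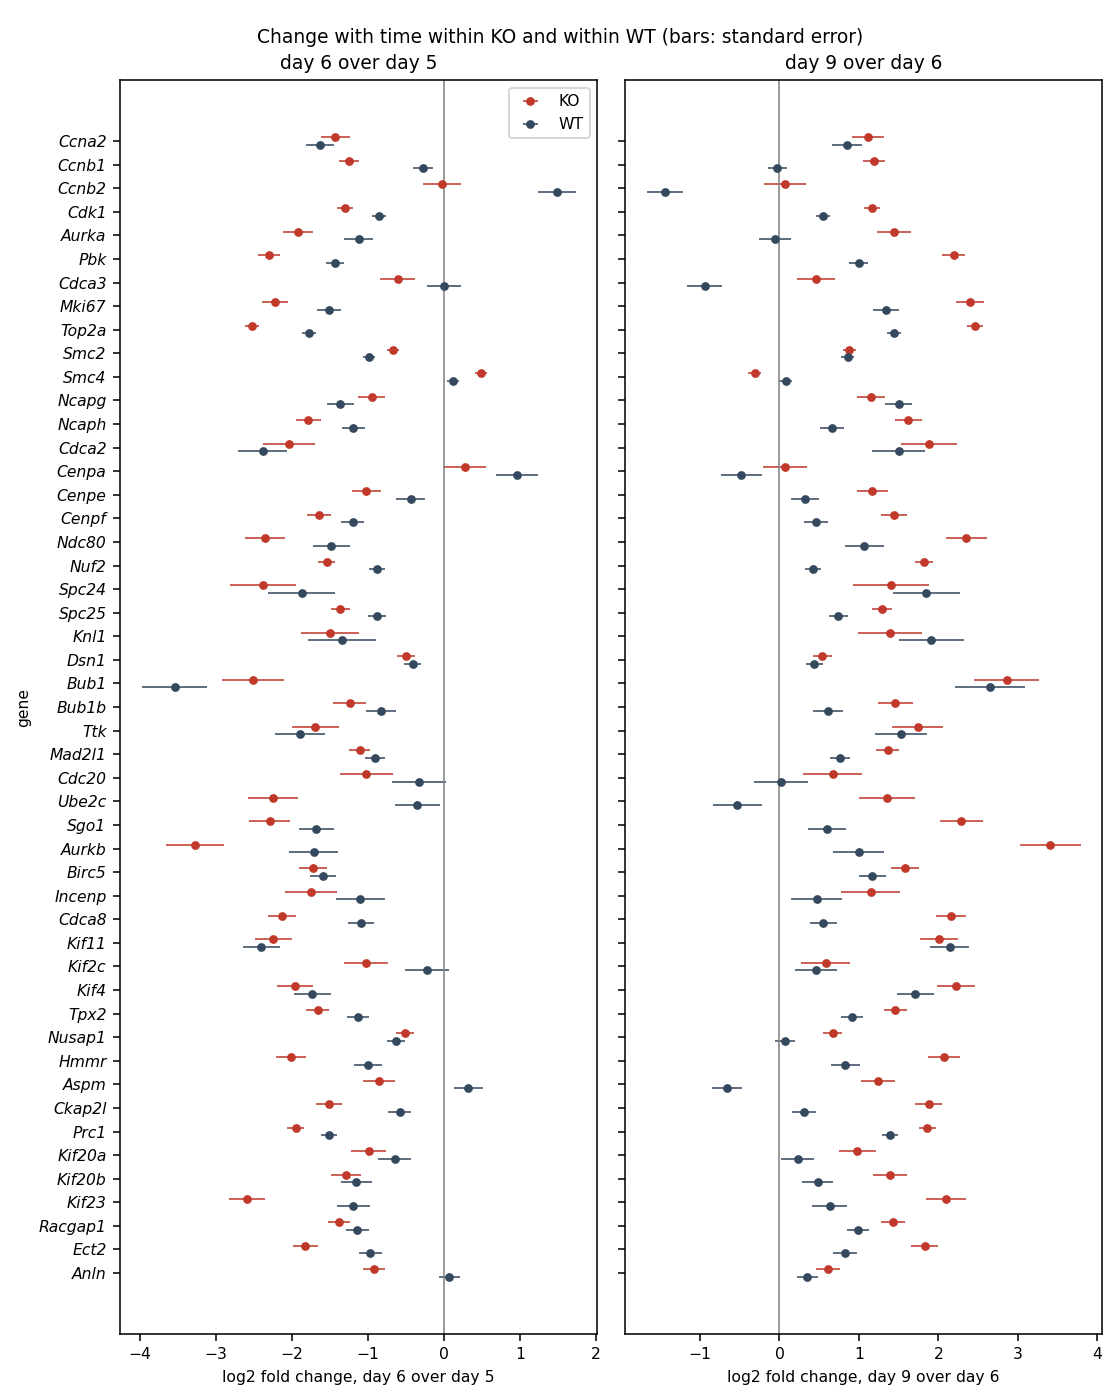
Log2 fold change of each of the 49 tested genes at day 6 over day 5 (left) and day 9 over day 6 (right), in KO (red) and WT (blue-grey), with standard errors as bars. Most red points lie further from 0 than the blue-grey ones, down on the left (median -1.54 in KO and -1.10 in WT) and up on the right (1.43 and 0.63); Ccnb2 in WT and Smc4 in KO run the other way.

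Whether KO and WT moved differently was tested as an interaction. From day 5 to day 6, 16 of 49 genes moved lower in KO than in WT and 1, Smc4, moved higher, against 12.6% of all genes called either way (7.48% higher and 5.11% lower). The differences in log2 change were -0.75 ± 0.13 (SE, adjusted p = 0.000106) for Top2a, -0.97 ± 0.18 (SE, adjusted p = 0.000411) for Ccnb1, -1.51 ± 0.35 (SE, adjusted p = 0.00354) for Ccnb2, and -0.99 ± 0.20 (SE, adjusted p = 0.000978) for Anln. The step from day 6 to day 9 uses the same day 6 libraries with opposite sign, so the steps are not independent. From day 6 to day 9, 25 moved higher in KO and 1, again Smc4, lower, against 7.81% of all genes (3.86% higher and 3.95% lower). Nuf2 had the smallest p, with a difference of 1.40 ± 0.15 (SE, adjusted p = 1.47e-07), followed by Top2a (difference 1.02 ± 0.13 SE, adjusted p = 1.88e-06), Ckap2l (difference 1.57 ± 0.23 SE, adjusted p = 2.52e-05) and Aspm (difference 1.91 ± 0.28 SE, adjusted p = 3.11e-05). With the close libraries summed, 2 genes, Ccnb2 and Top2a, passed for the first step and 7 for the second, Ccnb1, Pbk, Top2a, Nuf2, Cdca8, Aspm and Ckap2l. Leaving out 1 of the 16 libraries at a time ended 4 of 12 named calls of the first step. Aurkb was lost in 12 such fits, Mki67 in 11, Smc4 in 5 and Cdk1 in 3. Smc4 was also lost there with the correction for GC content and length. For the second step 3 of 16 named calls were lost, Spc25 in 10 fits, Smc4 in 7 and Nusap1 in 1.

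Few of these genes were called before day 6. At day 4 none of 41 genes was called by edgeR, DESeq2 or limma-voom, and 6 had an unadjusted p under 0.05 by edgeR, against 1.59% of all genes called (0.927% higher and 0.665% lower) and 13.1% at an unadjusted p under 0.05. Smc2 had the only groups without overlap, against 7.85% of all genes, at 63.8, 56.2, 61.8 and 67.5 CPM in KO and 71.5, 70.9, 71.4 and 74.3 CPM in WT (log2 fold change -0.21 ± 0.09 SE, adjusted p = 0.304). At day 5 Smc2 and Dsn1 were lower in KO and no gene was higher, 2 of 49 (4.08%), against 15% of all genes (6.22% higher and 8.76% lower). Smc2 had 97.3, 94.4, 97.3 and 97.2 CPM in KO, against 121, 116, 115 and 116 CPM in WT. This was a log2 fold change of -0.28 ± 0.08 (SE, adjusted p = 0.0145). Dsn1 had 28.2, 20.5, 22.9 and 23.8 CPM in KO, against 30, 34.4, 28.6 and 31.2 CPM in WT. For Dsn1 the log2 fold change was -0.39 ± 0.11 (SE, adjusted p = 0.0166). Neither overlapped. Both calls were lost with the close libraries summed (adjusted p = 0.195 for Smc2 and 0.175 for Dsn1), that of Smc2 also after the correction for GC content and length, and that of Dsn1 also without KO library 2 (0.0760) or WT library 2 (0.0619). Without KO library 3 the count was 3, and without KO library 2 it was 1. Dsn1 was thus lower in KO at each of days 5, 6 and 9.

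**Figure D4:**
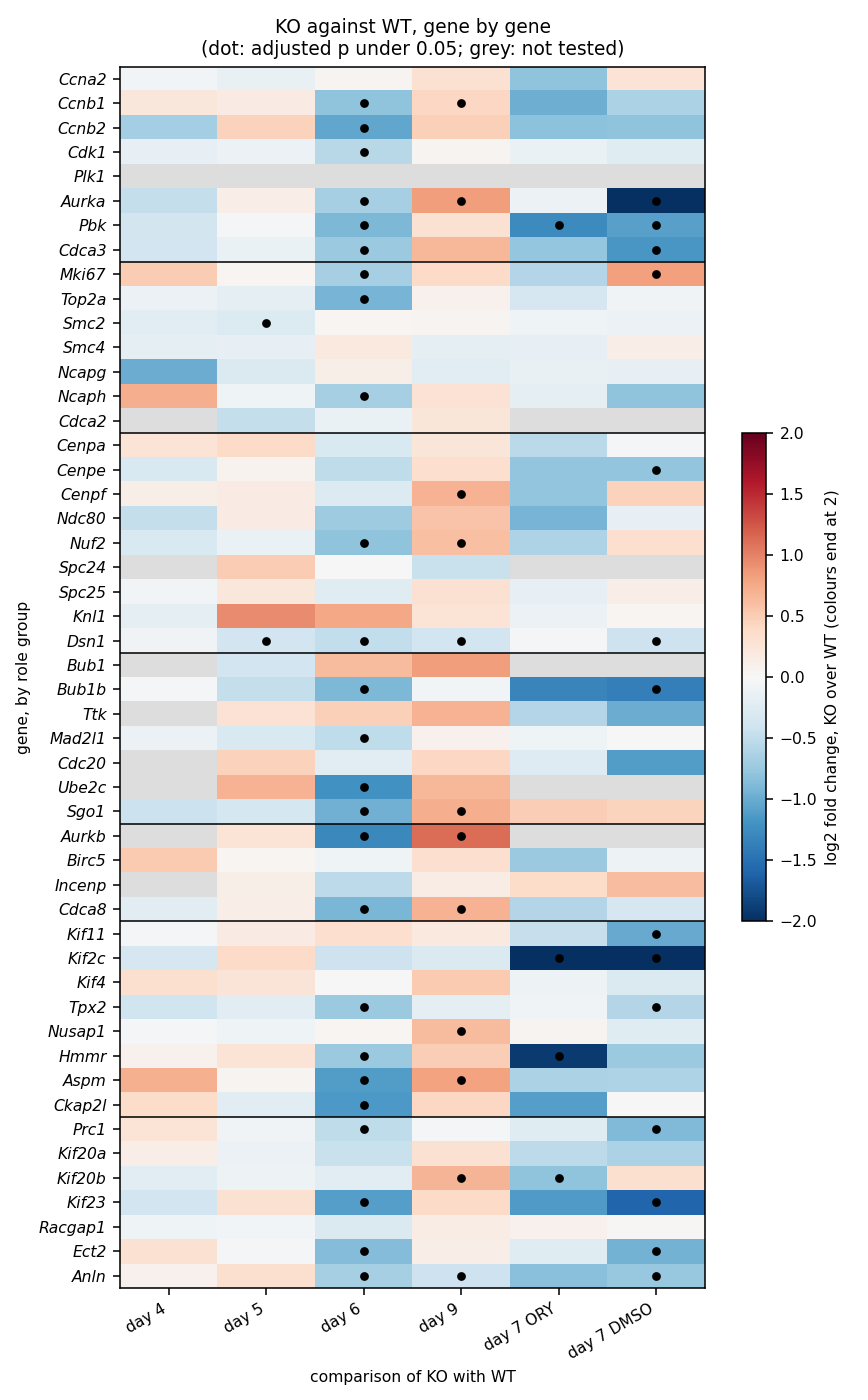
Log2 fold change of KO over WT for the 50 genes (rows, in 7 role groups) in the 6 comparisons (columns), from blue for lower in KO to red for higher in KO, with a dot where the adjusted p was under 0.05 and grey where the gene was not tested. The day 6 column is mostly blue with 25 dots, the day 9 column mostly red with 12 dots, the day 7 columns hold 4 dots with ORY-1001 and 14 with DMSO, and day 4 has no dot.

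At day 7 with DMSO, 13 of 44 genes were lower and 1 higher in KO (31.8%), which is close to the 36.0% of all genes called in this comparison (19.1% called lower). The median log2 fold change was -0.31, beside -0.02 for all genes, and 7 genes had no overlap, all lower in KO, against 31.7% of all genes. Levels were low: 14 of the 50 genes averaged under 1 CPM in KO and 6 in WT. Without WT library 2, the deepest at 20.6 M reads, the 14 calls became 9. The neural stem and astroglial markers also summed to more in KO, at 11300 to 12000 CPM, against 8810 to 9530 CPM in WT. They did not move together: Fabp7, Vim, Hopx and Nes were called higher in KO, and Gfap, Id3 and Slc1a3 lower. Fabp7 averaged 3050 CPM in KO and 1360 CPM in WT, and Gfap averaged 99.5 CPM in KO and 520 CPM in WT. The part of these markers in these differences was not tested.

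Aurka had 0.545, 0.736, 0.304 and 0.949 CPM in KO, from 5, 6, 2 and 5 reads, against 2, 3.71, 1.45 and 2.51 CPM in WT. The fitted log2 fold change was -2.01 ± 0.41 (SE, adjusted p = 0.00034). Prc1 had 8.5, 13.6, 7.29 and 5.88 CPM in KO, against 22.4, 13.7, 17 and 14.7 CPM in WT. KO over WT came to a log2 fold change of -0.89 ± 0.19 (SE, adjusted p = 0.000569). Kif2c, a kinesin that dismantles microtubules at kinetochores, had 0.109, 0.245, 0.152 and 0.38 CPM in KO, from 1, 2, 1 and 2 reads, against 2.62, 0.578, 2.54 and 0.773 CPM in WT. The log2 fold change was -2.79 ± 0.64 (SE, adjusted p = 0.00121). All 3 were without overlap, though the highest Prc1 value in KO lay just under the lowest in WT. Kif11 fell by 1.01, Tpx2, the spindle assembly factor that activates Aurora A, by 0.59 and Kif23, the midzone motor, by 1.59 (adjusted p = 0.00995, 0.0124 and 0.0098, the last 0.0510 without KO library 1). Ect2, Pbk and Bub1b fell by 0.94, 1.09 and 1.37 with overlap between the groups (adjusted p = 0.00286, 0.00669 and 0.0219), and Bub1b was lost without KO library 1 or 4 or WT library 2 or 4 (0.0560 to 0.122). Top2a and Cdk1 were at -0.07 and -0.24, not called.

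Mki67 was the one gene called higher in KO with DMSO, with 6.54, 5.76, 2.73 and 3.61 CPM in KO and 1.85, 2.31, 3.87 and 2.9 CPM in WT. On the log2 scale KO over WT was 0.82 ± 0.30 (SE, adjusted p = 0.0321). The groups overlapped, and the adjusted p was 0.0842 to 0.154 without KO library 1 or 2 or WT library 1 or 2, and 0.0600 when libraries were scaled by their totals alone. Anln and Dsn1 were lower again, by 0.76 and 0.42 (adjusted p = 0.019 and 0.0331); Anln was lost without KO library 2 or 4 or WT library 3 (0.0513 to 0.0944), and Dsn1 without KO library 2 or 3 or WT library 1, 2 or 4 (0.0540 to 0.107).

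With ORY-1001, 4 of 44 genes were lower and none higher in KO than in WT (9.09%), against 1.15% of all genes. The median log2 fold change was -0.53, beside -0.01 for all genes, and 11 genes had no overlap, all lower in KO, against 9.02% of all genes. Kif2c had 0.944, 0.403, 0.173 and 0.633 CPM in KO, from 5, 4, 1 and 5 reads, against 4.06, 4.08, 3.1 and 5.1 CPM in WT. This was a log2 fold change of -2.93 ± 0.50 (SE, adjusted p = 0.00232). It was the one call kept without each library in turn, and its groups did not overlap. Pbk had 5.47, 4.33, 6.04 and 5.07 CPM in KO, against 13.7, 14.3, 12.1 and 10.1 CPM in WT. The fitted log2 fold change was -1.27 ± 0.26 (SE, adjusted p = 0.0129). Hmmr, a spindle and hyaluronan-binding protein, had 1.7, 1.61, 0.69 and 0.633 CPM in KO, from 9, 16, 4 and 5 reads, against 6.86, 3.18, 4.8 and 2.86 CPM in WT. For Hmmr the log2 fold change was -1.92 ± 0.40 (SE, adjusted p = 0.0129). Neither overlapped, and Pbk was lost without library 2 of KO (0.0761) or WT (0.0509) and Hmmr without KO library 3 (0.0563) or 4 (0.0657). Kif20b fell by 0.80 with overlap (adjusted p = 0.0441) and was lost without KO library 2, 3 or 4 or WT library 1, 2 or 3 (0.0831 to 0.154). Ccnb1 was at -0.97 (adjusted p = 0.0571), Cenpf at -0.79 and Ckap2l at -1.10 (0.102 and 0.105), all 3 without overlap and not called. The count of 4 was 2 without WT library 2 or without KO library 2, 3 or 4, and 5 without WT library 4.

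ORY-1001 was compared with DMSO within each genotype. In KO, 10 of 44 genes rose and 2 fell (27.3%), against 38.7% of all genes called (20.3% higher and 18.3% lower). In WT 13 rose and none fell (29.5%), against 15.1% of all genes called (8.16% higher). There was no overlap for 10 genes in KO, against 35% of all genes, and for 13 in WT, against 18% of all genes. The rise in WT came to 8 genes without WT DMSO library 2. Of the 10 and 13 genes, 6 were shared (60% and 46.2% of the lists): Ccnb1, Cdca3, Cenpe, Kif20a, Pbk and Prc1. The comparison within KO shares its DMSO libraries with that of KO with WT under DMSO.

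In KO, Aurka had 3.59, 3.93, 3.11 and 4.31 CPM with ORY-1001, against 0.545, 0.736, 0.304 and 0.949 CPM with DMSO (log2 fold change 2.57 ± 0.40 SE, adjusted p = 1.12e-05), and Prc1 had 25.9, 19.3, 23.6 and 20 CPM with ORY-1001, against 8.5, 13.6, 7.29 and 5.88 CPM with DMSO (log2 fold change 1.29 ± 0.19 SE, adjusted p = 4.5e-06). Neither overlapped. Kif20a, which carries the passenger complex to the midzone and shares 29.3% of its exonic length with Cdc23, rose by 1.51, and Ncaph, a condensin subunit, by 1.02 (adjusted p = 0.00356 and 0.0122). The 2 genes that fell were Smc4, with 87.4, 83.9, 79.9 and 74.2 CPM with ORY-1001 and 124, 125, 108 and 97.4 CPM with DMSO (log2 fold change -0.49 ± 0.11 SE, adjusted p = 0.000546), and Kif20b (log2 fold change -0.73 ± 0.20 SE, adjusted p = 0.00479), both without overlap. In WT, Mki67 had 5.6, 9.53, 8.68 and 6.47 CPM with ORY-1001, against 1.85, 2.31, 3.87 and 2.9 CPM with DMSO (log2 fold change 1.46 ± 0.29 SE, adjusted p = 0.000963), and Cenpf had 10.8, 7.03, 10.1 and 9.7 CPM with ORY-1001, against 4.32, 4.77, 3.75 and 3.87 CPM with DMSO (log2 fold change 1.16 ± 0.24 SE, adjusted p = 0.00132). Pbk and Ccnb1 rose by 1.33 and 1.15 in WT (adjusted p = 0.000753 and 0.00269), and Top2a by 0.57 (0.0104); none of these 5 WT calls overlapped or was lost without any 1 library. Prc1 (0.64) was lost without WT DMSO library 2 (0.0698), as were Kif2c, Birc5, Ccna2 and Cenpe, each of which was also lost without 2 to 5 other libraries (0.0563 to 0.134 over all of these).

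**Figure D5:**
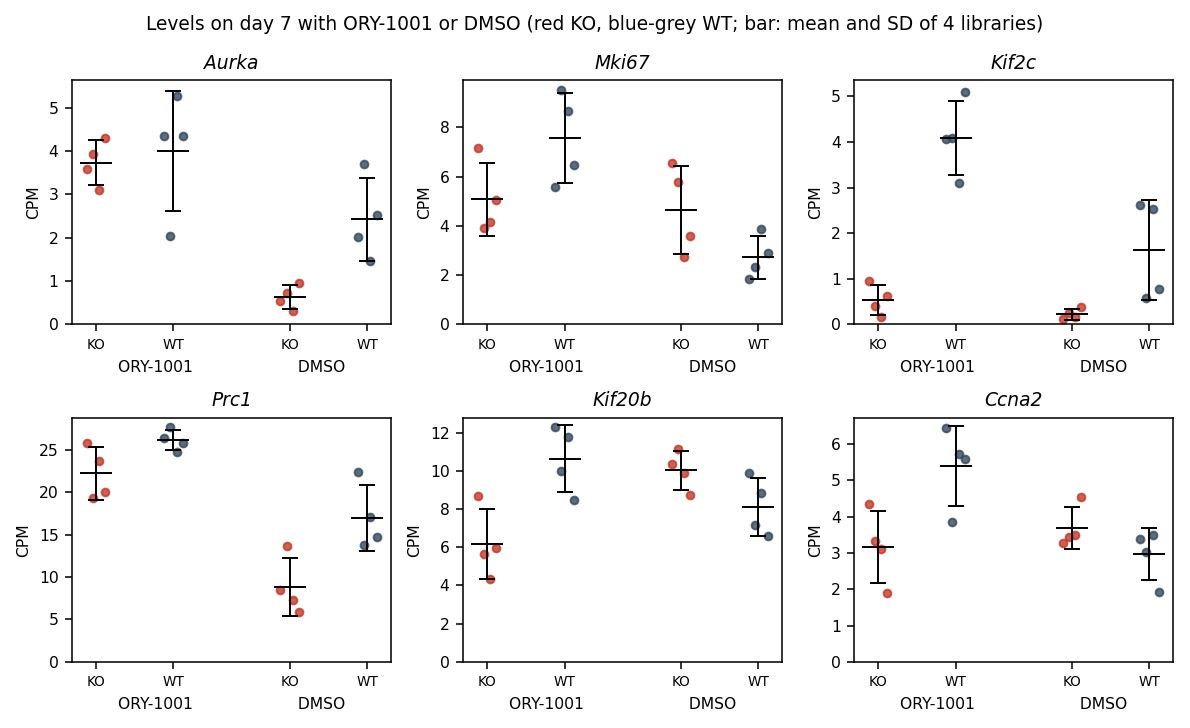
Levels (CPM, vertical axes from 0) of Aurka, Mki67, Kif2c, Prc1, Kif20b and Ccna2 at day 7 in the 4 KO (red) and 4 WT (blue-grey) libraries with ORY-1001 (left) and DMSO (right), with the mean and SD as bars. Aurka and Prc1 in KO are higher with ORY-1001 than with DMSO in every library, Kif20b in KO is lower in every library, and Mki67 and Kif2c in WT are higher with ORY-1001 in every library.

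The effect of ORY-1001 differed between KO and WT for 5 of 44 genes (11.4%), against 17.9% of all genes. Aurka rose more in KO than in WT, with a difference in log2 change of 1.89 ± 0.52 (SE, adjusted p = 0.0116), and Kif20b, Cenpf, Mki67 and Ccna2 changed in KO by less than in WT or in the opposite direction: -1.13 ± 0.28 (SE, adjusted p = 0.00501), -1.25 ± 0.34 (SE, adjusted p = 0.0112), -1.40 ± 0.41 (SE, adjusted p = 0.0166) and -1.08 ± 0.38 (SE, adjusted p = 0.0462). Kif20b and Cenpf kept their calls without each of the 16 libraries. Aurka was lost without WT DMSO library 2 (0.0585), Mki67 without KO DMSO library 1 (0.0532), and Ccna2 without 12 of the 16 libraries (0.0502 to 0.102).

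The other genes of the pathway were taken from lists of 131 genes around mitosis, and their counts stand beside 13.1% of all genes called at day 6, 11.8% at day 9, 1.15% at day 7 with ORY-1001 and 36% with DMSO. At day 6, 2 of 21 tested regulators of mitotic transcription were higher in KO and none was lower. They were Rb1 and Rbl2, pocket proteins that repress cell cycle genes, with log2 fold changes of 0.24 and 0.28 (adjusted p = 0.00107 and 0.0371). At day 9 the same 2 were higher, by 0.29 and 0.30 (0.00011 and 0.0352). Neither count exceeded the share of all genes called on that day. At day 5 none of the 21 was higher in KO, and 2, Nfyb and Rbl2, were lower, against 15% of all genes called. Of 34 tested genes that control CDK1 or the anaphase-promoting complex, 3 were higher and 3 lower in KO at day 6, and 3 were higher and 1 lower at day 9. Cdkn1a, the CDK inhibitor p21, was higher in KO at days 5, 6 and 9, by 0.85, 0.40 and 0.59 (adjusted p = 1.03e-08, 0.000898 and 7.7e-06), and lower at day 7 with DMSO by 0.29 (0.0134). Of 68 other mitosis genes, 3 were higher and 5 lower at day 6, with Cenpk and Cenpn lower by 0.67 and 1.25 (0.00244 and 0.00347), and 7 were higher and 3 lower at day 9. At day 7, none of 59 was called with ORY-1001, and 3 were higher and 16 lower in KO with DMSO. The counts of these 68 and 59 genes lie near the share of all genes at days 6 and 9 and with DMSO.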

How the data were processed

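RNA was measured in 48 libraries by SMART-seq2, which does not keep strand. The authors trimmed reads with Trimmomatic 0.32, aligned them to GRCm38 with STAR 2.5.2a and deposited raw counts of uniquely mapped reads per gene in 3 tables. Members and gene lists were chosen with earlier results of these data known. Each table was tested alone with edgeR 4.0.16 (quasi-likelihood test, TMM, filterByExpr), fitting all its groups together, under R 4.3.3, with Benjamini-Hochberg adjustment over all genes and a threshold of 0.05. CPM use TMM-scaled library sizes. Depth was 3.14 to 20.6 M reads per library (M, 10 to the sixth). The named genes are 12 fixed genes, the called gene with the smallest p in each role group, and the 3 largest changes each way per comparison; others are named as values. Pathway genes were the 3 smallest p per list. Alternatives were DESeq2 1.42.0, limma-voom 3.58.1, other scalings and filters, a replicate block, a GC and length correction, summed libraries, and leaving out each library. The scripts were tested on simulated counts. The summed level of the oligodendrocyte lineage markers is not reported here.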

Additional observations from a re-analysis of the deposited data

Results flagged for a closer look

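The 144 groups of 4 libraries examined covered the summed level and the 12 fixed genes except Plk1. In 11 of them 1 library stood apart from the other 3, and chance sets 1 apart in about 1 in 20 groups. In KO these were Ccna2 at day 4 library 2 (3.24 CPM), Ccnb1 at day 5 library 1 (34.9 CPM), Bub1 at day 5 library 3 (9.45 CPM), Top2a at day 6 library 2 (17.6 CPM), Aurkb at day 6 library 4 (0.153 CPM) and Nusap1 at day 9 library 3 (42.2 CPM). At day 7 they were Cenpf in KO with ORY-1001 library 1 (3.77 CPM), Cdk1 in WT with ORY-1001 library 4 (37.2 CPM), and Aurkb and Bub1 in KO with DMSO libraries 2 and 1 (0.123 and 0.763 CPM). The last was Nusap1 in WT at day 6 library 1 (24.1 CPM).

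The change at day 6 over day 5 differed between KO and WT by edgeR's interaction test for 17 genes, among them Mki67 (-0.70), Top2a (-0.75), Cdk1 (-0.45), Ccnb1 (-0.97), Aurkb (-1.56), Anln (-0.99), Nuf2 (-0.66), Ube2c (-1.90), Cdca8 (-1.04), Aspm (-1.17), Ccnb2 (-1.51) and Smc4 (0.37), as differences in log2 change, KO minus WT. The change at day 9 over day 6 differed for 26 genes, among them Mki67 (1.06), Top2a (1.02), Cdk1 (0.63), Ccnb1 (1.23), Aurkb (2.41), Cenpf (0.98), Nusap1 (0.60) and Nuf2 (1.40). Others were Ckap2l (1.57), Cdca8 (1.61), Sgo1 (1.69), Ect2 (1.01), Smc4 (-0.39), Spc25 (0.55), Ube2c (1.87) and Aspm (1.91). Certain single libraries, when left out, ended the calls of Mki67, Cdk1, Aurkb and Smc4 at day 6 over day 5. The same held for Nusap1, Smc4 and Spc25 at day 9 over day 6. The change with ORY-1001 differed for 5 genes, Mki67 (-1.40), Ccna2 (-1.08), Cenpf (-1.25), Kif20b (-1.13) and Aurka (1.89).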

How the results depend on the processing

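No named call reversed under any setting run, and 104 of 170 were kept under all of them. Without the filter on low counts, 1 gene was called at day 4 and 8 for KO against WT with ORY-1001. The replicate block gave 9 for that comparison and 8 for the genotype by ORY-1001 difference, and ended no named call. Same-numbered libraries deviated together above 0.1 in every pair in no comparison over all genes, but in 9 of 15 among genes averaging 5 or more in log2 CPM, and the labels do not say what a number shares. The GC and length correction gave 1 at day 5 and 7 for KO against WT with ORY-1001. The replicate block together with the GC and length correction gave 4 at day 5, 19 at day 9 and 9 for KO against WT with ORY-1001. Summed libraries gave 0 at day 5, 8 at day 6, 1 at day 9, and 2 and 7 for the genotype by time differences at day 6 over 5 and day 9 over 6; the cause was not tested beyond there being 2 samples a group. Leaving out each library gave 0 to 1 calls at day 4, 1 to 3 at day 5, 20 to 24 at day 6, 9 to 13 at day 9, 9 to 14 with DMSO and 2 to 5 with ORY-1001. It gave 15 to 18 and 21 to 27 for the genotype by time differences, 45 to 47 in KO and 39 to 41 in WT at day 6 over 5, and 42 to 45 in KO and 33 to 37 in WT at day 9 over 6. For ORY-1001 over DMSO it gave 10 to 15 in KO and 8 to 12 in WT, and 4 to 6 for the genotype by ORY-1001 difference. At day 7 in KO with DMSO, a library had at most 1 read of Aurkb, 2 of Kif2c and 6 of Aurka. Their values there rest on few reads, and so does the change of Aurka with ORY-1001 in KO. The level of Kif2c in KO with ORY-1001 also rests on few reads, 5, 4, 1 and 5 in its libraries.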
